A study of Mus musculus with 7 samples.

Results

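The regions described here are the 226 accessible regions, of 55680 in the liver ATAC-seq count table, whose start lies in one of 3 windows of the mouse genome (GRCm38): 83 between positions 145000001 and 148000000 of chromosome 4, 92 between 14000001 and 16000000 of chromosome 5, and 51 between 19000001 and 22000000 of chromosome 8. The windows were chosen because accessibility measured in these same samples was lower with age there. The aged against young values of the 226 regions are therefore a description of what was selected, and counts of calls among them carry no weight as a test.

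ATAC-seq, in which a transposase inserts sequencing adapters into open chromatin, was performed on liver tissue of male C57BL/6N mice. Young mice were 3 months old (3 libraries) and aged mice 18 months old (4 libraries), and the labels name no transgene or treatment. Per the labels, the 4 aged libraries came from 3 animals, 1 of which was sampled in 2 lobules, and the libraries of that animal are not named. All p-values below thus measure only the spread between these libraries. Hepatocyte genes marked the tissue as labelled: promoter regions were present at 6 of 6 marker genes, with summed levels of 595 to 641 CPM (counts divided by the scaled library total) in young and 703 to 814 in aged libraries, whereas 0 of 5 lymphocyte marker genes had one. Such regions were also present at 2 of 4 endothelial (49.7 to 52.4 CPM in young, 39.8 to 66.8 in aged), 2 of 4 cholangiocyte (41.7 to 49.5 and 36.7 to 54.3), 2 of 3 stellate cell (20.9 to 24.0 and 11.9 to 18.98) and 1 of 4 macrophage markers (2.22 to 2.65 and 0.588 to 2.80). The age groups did not overlap in the hepatocyte sums, which were higher in aged libraries, or in the stellate sums, which were lower, and their part in the results was not tested. In bulk tissue, fewer cells with an open region and less open DNA per cell cannot be told apart.

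Each window is known for a tandem gene family. On chromosome 4 these are zinc finger genes, DNA-binding proteins of which many carry a KRAB domain and silence transposable elements. Chromosome 5 holds Speer genes, named for glutamate-rich proteins of the testis, and chromosome 8 holds defensins, antimicrobial peptides of epithelia and, for the alpha-defensins, of the Paneth cells of the intestine. Such families arise by local duplication, which leaves stretches of nearly identical DNA, and short reads from such stretches are hard to place. The authors kept reads with a mapping quality above 10, and how well the kept reads separate the copies was not measured. The reference genome is that of C57BL/6J, a related substrain, and copy numbers in the sampled C57BL/6N mice were not measured.

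Genes were counted in a family by symbol or annotated description alone, so relatives under other names were left out. By this count, the windows did not match their family names equally well. On chromosome 4, GENCODE M21 lists 105 genes in the window, 20 of them zinc finger genes, and 16 of these touched the duplicated stretch described below. On chromosome 5, 4 of 37 genes were Speer genes (Speer4e, Speer4d, Speer4c and its opposite-strand transcript Speer4cos), all inside that stretch. On chromosome 8, 61 of 135 genes were named as defensins, but 1 of the 61 touched the stretch and 2 regions overlapped any of them. Genes of the stretch with symbols such as AY761185, Gm15056 and Gm6040 were not counted, and whether they are defensins was not examined. The chromosome 8 group is therefore called here by its position and its copies, and not by the defensins.

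Sequences of 100 bases are shown for 4 sets of regions on which the comparisons below turn. The first set surrounds the annotated starts of the zinc finger genes Zfp988 (chr4:147305614-147305713, plus strand), Zfp984 (chr4:147809749-147809848, minus strand) and Zfp933 (chr4:147848327-147848426, minus strand) and of the processed pseudogenes Gm13161 (chr4:147443411-147443510, plus strand) and Gm13241 (chr4:146475272-146475371, plus strand). They are shown because these starts differed widely in CG content and in level with age. Capitals mark CG dinucleotides, of which the zinc finger starts held 2 to 4, Gm13161 held 8 and Gm13241 held 11.
Zfp988: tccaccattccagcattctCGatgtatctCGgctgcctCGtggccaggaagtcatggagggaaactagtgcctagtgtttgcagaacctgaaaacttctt
Zfp984: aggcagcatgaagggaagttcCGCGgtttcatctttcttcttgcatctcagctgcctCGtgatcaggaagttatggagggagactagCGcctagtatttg
Zfp933: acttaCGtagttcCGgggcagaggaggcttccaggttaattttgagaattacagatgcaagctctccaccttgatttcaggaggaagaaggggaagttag
Gm13161: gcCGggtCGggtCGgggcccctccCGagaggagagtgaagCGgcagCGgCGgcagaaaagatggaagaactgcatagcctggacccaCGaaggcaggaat
Gm13241: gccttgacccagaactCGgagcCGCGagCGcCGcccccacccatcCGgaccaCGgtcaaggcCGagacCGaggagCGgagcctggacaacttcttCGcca

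The second set comes from 5 regions of chromosome 8 that are copies of each other and had the strongest signal in their window (mean CPM, not scaled to length, here and for other regions called strong). The stretches lie at chr8:20297393-20297492 (6820431F20Rik, minus strand), chr8:19784682-19784781 (Gm10060, plus strand), chr8:20122320-20122419 (Gm21769, plus strand), chr8:20424661-20424760 (2610005L07Rik, minus strand) and chr8:20550260-20550359 (a region without an annotated gene, plus strand). They are shown because the values of these copies lay near 0 in a span where most regions had lower values in aged libraries. Capitals mark bases that differ from the first sequence, which were 0 to 2 in each copy.
6820431F20Rik: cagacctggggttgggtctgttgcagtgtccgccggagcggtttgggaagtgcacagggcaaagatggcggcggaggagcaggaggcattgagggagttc
Gm10060: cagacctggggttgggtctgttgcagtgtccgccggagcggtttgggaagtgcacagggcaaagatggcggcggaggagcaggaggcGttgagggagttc
Gm21769: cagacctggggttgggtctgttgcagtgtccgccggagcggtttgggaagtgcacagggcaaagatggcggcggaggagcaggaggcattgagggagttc
2610005L07Rik: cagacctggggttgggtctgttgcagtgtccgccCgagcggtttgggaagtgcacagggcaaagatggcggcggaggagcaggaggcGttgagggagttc
unnamed: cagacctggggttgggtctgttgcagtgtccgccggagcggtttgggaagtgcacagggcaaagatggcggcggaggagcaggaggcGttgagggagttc

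The third set comes from the start of Speer4c (chr5:15714197-15714296, minus strand) and of the genes Gm21149 (chr5:15476458-15476557, minus strand), Gm21190 (chr5:15529213-15529312, minus strand) and Gm21083 (chr5:15577243-15577342, plus strand). It shows how alike the promoters of the chromosome 5 genes are: capitals mark bases that differ from Speer4c, 1 in Gm21149 and 0 in the other two. None of the 4 holds a CG dinucleotide.
Speer4c: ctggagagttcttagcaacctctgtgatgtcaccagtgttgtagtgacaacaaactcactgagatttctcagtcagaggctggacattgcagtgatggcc
Gm21149: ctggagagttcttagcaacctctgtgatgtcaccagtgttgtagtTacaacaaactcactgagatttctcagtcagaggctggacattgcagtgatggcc
Gm21190: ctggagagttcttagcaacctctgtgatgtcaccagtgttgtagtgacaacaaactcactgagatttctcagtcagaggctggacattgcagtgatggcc
Gm21083: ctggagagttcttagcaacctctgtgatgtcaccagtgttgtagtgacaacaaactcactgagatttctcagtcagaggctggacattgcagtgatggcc

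The fourth set pairs the promoter of Smarca5 (chr8:80739178-80739277, plus strand), which encodes the ATPase of ISWI chromatin remodelling complexes and lies far outside the windows, with Gm13136 (chr4:147738688-147738787, plus strand) and Gm13135 (chr4:147275796-147275895, minus strand), a pair of pseudogenes in the chromosome 4 window. It is shown because near-identical DNA at the parent gene and at the pseudogenes had different values with age. Capitals mark bases that differ from Gm13136, 4 in Gm13135 and 6 in Smarca5.
Gm13136: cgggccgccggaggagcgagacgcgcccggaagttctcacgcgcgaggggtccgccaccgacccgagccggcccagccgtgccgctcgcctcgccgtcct
Gm13135: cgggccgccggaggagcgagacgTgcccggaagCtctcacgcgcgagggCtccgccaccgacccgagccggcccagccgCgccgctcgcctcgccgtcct
Smarca5: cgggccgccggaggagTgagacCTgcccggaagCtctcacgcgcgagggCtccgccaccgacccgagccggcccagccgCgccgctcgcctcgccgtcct

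To ask how the windows compared with the DNA beside them, each was set against the regions within 3 Mb on either side. The median log2 fold change (aged over young) was -0.67 in the chromosome 4 window, -1.77 in the chromosome 5 window and -1.79 in the chromosome 8 window, against -0.035 over all regions. The flanks lay close to that value, with -0.05 over 267 regions on chromosome 4, 0.04 over 33 regions on chromosome 5 and -0.03 over 130 regions on chromosome 8. With flanks of 1 Mb, the medians turned to 0.022 on chromosome 4 and -0.28 on chromosome 5, over 5 regions, and moved to -0.14 on chromosome 8. Values below -1 were found at 37, 90 and 36 regions of the windows and at 6, 1 and 5 regions of the flanks.

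At an adjusted p under 0.05 in edgeR's quasi-likelihood test over all regions, 31 of 83, 80 of 92 and 31 of 51 regions were called less accessible with age in the 3 windows, and 1, 1 and 0 more accessible. Over all 55680 regions, 3.30% were called less and 2.44% more accessible. Since the windows were selected on this contrast, nothing is read from that difference. In the flanks, which the rule did not select, 5 of 267, 1 of 33 and 3 of 130 regions were called less accessible, and 6, 0 and 3 more. At an unadjusted p under 0.05, 1 region of the chromosome 5 flanks was higher, and DESeq2 called 0. Every aged library lay below every young library at 27, 73 and 34 regions of the windows, and at 11.6% of all regions.

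These counts depended strongly on single libraries. Without young replicate 1 they were 1, 7 and 8 regions, and without young replicate 2, 1, 15 and 9. Without aged replicate 1 they were 3, 18 and 10, and without aged replicate 3, 7, 33 and 16. Summing aged 1 and 3 as 1 animal gave 11 on chromosome 4 and 44 on chromosome 5, and offsets for abundance gave 5, 23 and 14. The median log2 fold changes moved less, between -0.72 and -0.59 on chromosome 4, between -2.07 and -1.54 on chromosome 5 and between -1.96 and -1.65 on chromosome 8 over all 7 fits that left out 1 library. A filter of 10 counts in every sample, which by construction removes regions low in aged libraries, left 45, 17 and 19 regions. The medians were then -0.24 on chromosome 4 and 0.10 on chromosome 8. Total counts ran from 4474652 to 25461110 per library, and the median region of the windows held 20 to 176.5 counts in young and 7 to 21 in aged libraries.

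**Figure D1:**
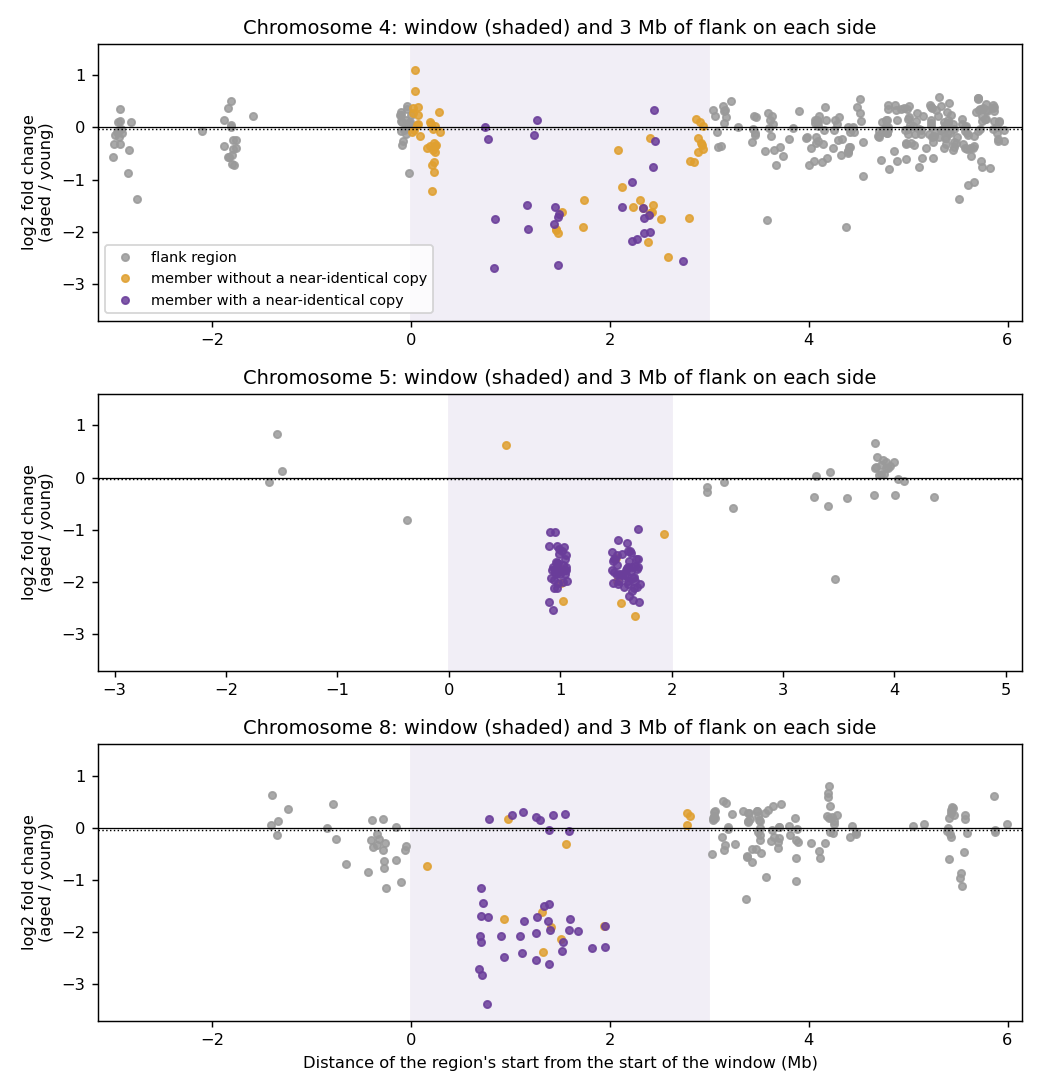
Log2 fold change (aged over young, vertical axis) of every accessible region in the 3 windows (shaded) and their flanks, against the distance of its start from the start of the window in Mb; each point is 1 region, the dotted line is the median of all regions, and colours separate flank regions from window regions with and without a near-identical copy. Most of the lower values lie in the duplicated spans inside the windows, where the medians are -1.63, -1.77 and -1.88.

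Regions of which the genome holds a near-identical copy (at least 95% identity over at least 80% of the region) were used to set a span inside each window, a choice made after the data had been seen. From the first to the last such region, the stretch ran from 145744754 to 147738881 on chromosome 4, from 14900659 to 15714778 on chromosome 5 and from 19682297 to 20948551 on chromosome 8. These duplicated spans measured 1994.13, 814.12 and 1266.26 kb and held 44, 90 and 47 regions. Their median log2 fold changes were -1.63, -1.77 and -1.88.

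Outside its span, the chromosome 4 window held 39 regions with a median of -0.16, of which 4 were called less and 1 more accessible. Low values also occurred there: the region at 147793592, in the body of Zfp984 and without a copy, had -1.74, and the region at 145208975 had -1.22. The whole-window median on chromosome 4 was thus a mixture of both kinds of regions. The chromosome 5 window held 2 regions outside its span and the chromosome 8 window 4, with a median of 0.14 over the latter. In the reference, 21.7%, 48.5% and 27.6% of the bases in the spans are unknown. On chromosome 5, 395 kb of unknown bases lie in a gap of 400.871 kb that separates a block of 38 regions from one of 52, and both blocks had similar medians of -1.76 and -1.80.

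Inside the spans, regions with and without a copy over their own length are given side by side. On chromosome 4 the median was -1.67 over 26 regions with a copy and -1.62 over 18 without. On chromosome 5 it was -1.77 over 83 and -2.02 over 7, and on chromosome 8 -1.89 over 39 and -1.81 over 8. Those called less accessible were 16 of 26 and 11 of 18 on chromosome 4, 73 of 83 and 7 of 7 on chromosome 5, and 28 of 39 and 3 of 8 on chromosome 8. By how exact the best copy was, over the 3 spans, the median was -1.67 for 34 regions with a best copy of 95 to under 97% identity, -1.76 for 94 regions at 97 to under 99%, and -1.83 for 20 regions at 99% or more. This order held on chromosome 5 (-1.57, -1.78 and -1.85 over 21, 55 and 7 regions). It did not hold on chromosome 8 (-2.30, -1.79 and -1.88 over 2, 25 and 12). On chromosome 4 the medians were -1.66 over 11, -1.73 over 14 and -0.14 for 1 region. Outside the windows, 787 regions with a near-identical copy had a median of -0.04, and 54667 without one had -0.03. The regions with a copy held more low values all the same: 84 (10.7%) were called less accessible and 104 lay below -1, against 1612 (2.95%) and 1866 of those without.

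Of the flank regions nearest to the windows, those given here had values between -0.81 and 0.25. Below the chromosome 4 window, a pair of regions in introns of Vps13d, a lipid transfer protein, had log2 fold changes of 0.10 and 0.25. Below the chromosome 5 window, the region at 12507290, in the body of Sema3d, a secreted axon guidance protein, had 0.13. The region at 13628984 had -0.81, and above the window the pair in Cacna2d1 had -0.28 and -0.19. On chromosome 8 the pair at and near Xkr5 had -0.42 and -0.35, and the pair in Atp7b, the copper transporter of hepatocytes, had -0.49 and 0.18. None of these regions was called in either direction.

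The level of the spans in each library showed which samples carried the difference. On chromosome 4, the median log2 CPM over the span was 2.73, 2.49 and 1.27 in young replicates 1 to 3 and 0.72, 0.73, 0.56 and 1.24 in aged replicates 1 to 4. On chromosome 5 it was 2.89, 2.78 and 1.73 in young and 0.68, 0.73, 0.67 and 1.35 in aged libraries, and on chromosome 8 2.68, 2.73 and 1.58 against 0.51, 0.82, 0.45 and 1.07. Young replicate 3 and aged replicate 4 lay between the other libraries in all 3 spans.

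Their order was narrow. On chromosome 4 young replicate 3 was above aged replicate 4 by 0.035 at the span median and at 29 of 44 regions, on chromosome 5 by 0.38 and at 73 of 90, and on chromosome 8 by 0.51 and at 42 of 47. In the flanks young replicate 3 and aged replicate 4 had 3.51 and 3.34 on chromosome 4, where the libraries ran from 3.24 to 3.51, 2.31 and 1.81 on chromosome 5 (1.81 to 2.46), and 3.18 and 3.04 on chromosome 8 (3.04 to 3.28). Aged replicate 4 was thus the lowest library in the flanks of chromosomes 5 and 8. Without both libraries, an alternative chosen after seeing the data, the called regions were 39, 88 and 34 and the medians of the windows -0.74, -2.28 and -2.07.

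**Figure D2:**
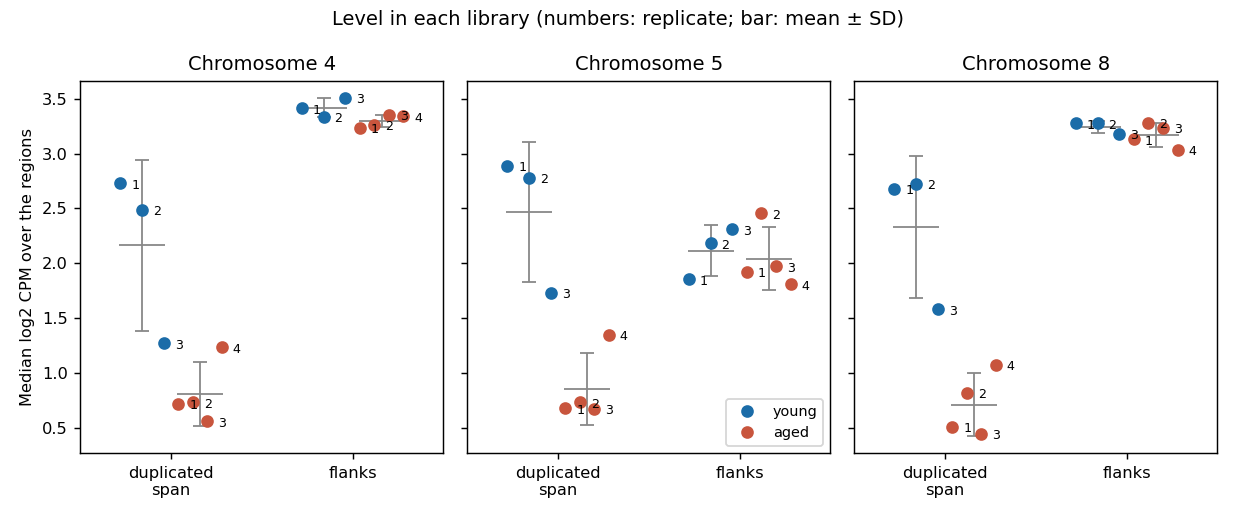
Median log2 CPM over the regions of each duplicated span and over the regions of its flanks (vertical axis) in the 3 young and 4 aged libraries; numbers give the replicate and bars the mean ± SD. In the spans young replicates 1 and 2 lie highest and young replicate 3 and aged replicate 4 lie between the rest, whereas the age groups overlap in the flanks.

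Subtracting the flank median from the window median within each library removed differences in scaling between libraries. On chromosome 4 this difference was -0.82 ± 0.51 in young (SD, n = 3) and -1.66 ± 0.12 in aged libraries (SD, n = 4), and the highest aged library, at -1.53, was just below the lowest young library, at -1.40. On chromosome 5 it was 0.35 ± 0.84 in young and -1.15 ± 0.52 in aged libraries, and the groups overlapped, with aged replicate 4 at -0.42 above young replicate 3 at -0.58. On chromosome 8 it was -0.84 ± 0.47 in young and -2.30 ± 0.35 in aged libraries, with -1.80 as the highest aged and -1.38 as the lowest young value. Over whole windows the groups were therefore separate on chromosomes 4 and 8 and not on chromosome 5. With the duplicated span described above in place of the window, they overlapped on chromosome 4 as well, with aged replicate 4 at -2.10 above young replicate 3 at -2.24, and stayed separate on chromosome 8 (-1.96 against -1.60).

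Within the spans, the regions fell into a large class with much lower values in aged libraries and a small one near 0. On chromosome 4, 35 of 44 regions had a log2 fold change below -1 and 8 lay above -0.5. On chromosome 5, 89 of 90 lay below -1 and 0 above -0.5, and on chromosome 8, 36 of 47 lay below -1 and 11 above -0.5. A single region on each of chromosomes 4 and 5 lay between these limits.

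The small class differed in base composition and, on chromosome 8, in level. On chromosome 8, its 11 regions had a median GC content of 58.8% and a ratio of observed to expected CG dinucleotides of 0.70, against 49.05% and 0.18 for the 36 regions below -1. In young libraries alone, their median level was 4.502 against 1.88 log2 CPM. On chromosome 4, the 8 regions above -0.5 had 64.3% GC and a CG ratio of 0.67, against 48.2% and 0.13, and similar young levels of 2.38 and 2.11 log2 CPM. GC content alone did not sort the regions of chromosome 4, since 7 of the 13 regions at 55% GC or more lay below -1. Repeats masked in the reference covered a median of 20.7%, 39.99% and 33.5% of the regions in the 3 spans and 10.8% of all regions.

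Weak regions elsewhere also had lower values in aged libraries, and the spans are given against regions of the same level, a mean over all 7 libraries that low aged values themselves reduce. Regions entered the data if found as peaks in 2 or more libraries of either age, and what this did to weak regions was not tested. Between 1.5 and 2 mean log2 CPM, 40 span regions had a median of -1.69 and all 40 lay below -1, while 6741 regions outside the windows had -0.27, of which 6.22% lay below -1. Between 2 and 3, 28 span regions had -1.70 with 25 below -1, against -0.19 and 2.98% outside. Between 3 and 4 the span values were closer to the others, with a median of -0.31 over 9 regions and 3 below -1, against -0.05 and 1.01% outside. Below 0.5, the 30 span regions had -2.18 and the others -1.32. At 4 and above, the spans held 8 regions. The 6 on chromosome 8 lay between 0.14 and 0.30, near the median of 0.18 outside the windows. The strongest span regions of chromosomes 4 and 5 had -0.76 and -1.48, below the 5th percentile of -0.45 for regions between 4 and 4.5 outside.

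**Figure D3:**
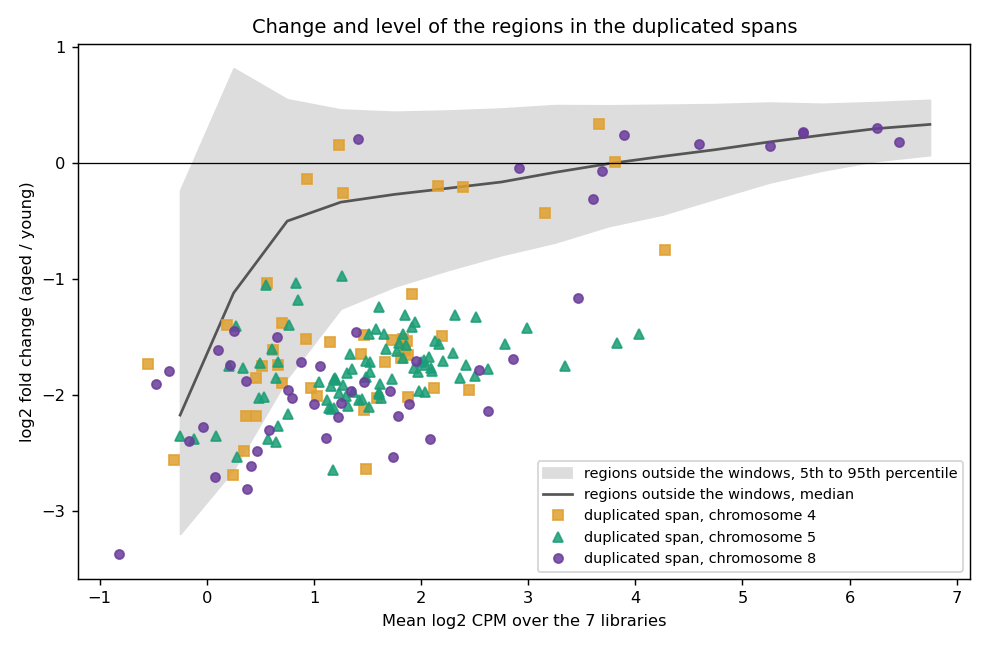
Log2 fold change (aged over young) of each region in the 3 duplicated spans against its mean log2 CPM over the 7 libraries; the line and the grey band give the median and the 5th to 95th percentile of regions outside the windows at the same level. Most span regions with a mean log2 CPM between 1 and 3 lie below the band; of the 8 at 4 or above, the 6 of chromosome 8 lie between 0.14 and 0.30, and 1 each of chromosomes 4 and 5 lies below the band at -0.76 and -1.48.

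The zinc finger window of chromosome 4 held 3 family genes with an accessible start. The promoter region of Zfp933 (147847767 to 147849044) had 14.8, 14.4 and 13.8 CPM in young and 9.49, 9.22, 8.64 and 8.78 CPM in aged libraries. The groups did not overlap, with 14.4 ± 0.51 and 9.03 ± 0.39 CPM (SD, n = 3 and 4) and a log2 fold change of -0.67 (SE 0.17). Zfp933 lies beyond the end of the duplicated span, and its region has no near-identical copy.

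The region at the start of Zfp984, also beyond the span, had 5.18, 5.63 and 4.60 CPM in young and 2.81, 2.94, 3.97 and 3.69 CPM in aged libraries. Its groups did not overlap, and its log2 fold change was -0.65 (SE 0.25). Zfp988, inside the span, was weak, with 2.04, 2.04 and 0.987 CPM in young and 0.527, 0.196, 1.17 and 0.891 CPM in aged libraries. Its log2 fold change was -1.40 (SE 0.47), but aged replicate 3 was above young replicate 3. The other 17 zinc finger genes of the window, among them Rex2, had no accessible region at their start. In all, 10 regions overlapped a zinc finger gene, with a median log2 fold change of -1.68.

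More starts on chromosome 4 belonged to processed pseudogenes, copies of spliced transcripts inserted into the genome, and these split into 2 kinds. Gm13241 had 10.5, 8.24 and 3.78 CPM in young and 1.05, 0.981, 1.17 and 1.65 CPM in aged libraries, a log2 fold change of -2.64 (SE 0.37). Its copy Gm13238 had -2.69 (SE 0.54) on fewer counts, and Gm13245 and Gm13162, which have no copy, had -2.03 and -1.13. Gm13161, instead, had 7.59, 13.1 and 12.5 CPM in young and 13.8, 17.7, 13.1 and 11.6 CPM in aged libraries, and its groups overlapped. The log2 fold changes were 0.33 at Gm13161, 0.15 at its copy Gm13168, -0.21 at its copy Gm13243 and 0.01 at Gm13244. High CG content was common to both kinds, as the sequences of Gm13161 and Gm13241 show.

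The strongest region of the span, at 147431619 and 2172 bp long, had 28.5, 30.7 and 21.05 CPM in young and 16.2, 25.7, 13.5 and 9.29 CPM in aged libraries, a log2 fold change of -0.76 with aged replicate 2 above young replicate 3. Its copy in the body of Abcg2, a drug efflux transporter on chromosome 6, had 8.91 ± 2.17 and 4.98 ± 3.59 CPM. That copy was outside the rule and was not called (log2 fold change -0.90, edgeR adjusted p = 0.162 over all regions). Without aged replicate 2 it had -1.44 and an edgeR adjusted p of 0.0271, and with aged 2 and 4 summed as 1 animal an adjusted p of 0.0280.

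Around the span, the same window held regions without copies at genes of other families. The lowest-numbered part belonged to Vps13d, where a region at 145037049 had 2.04, 2.87 and 2.30 CPM in young and 4.92, 6.28, 5.37 and 4.84 CPM in aged libraries. With a log2 fold change of 1.10 (SE 0.27), it was the highest value of the window. The strongest regions, an intronic one at Tnfrsf1b (a tumour necrosis factor receptor) with 70.0 ± 7.25 and 68.8 ± 6.24 CPM and the promoters of Mfn2, which drives mitochondrial fusion, and of Miip and Fv1, the latter a retrovirus restriction gene, had log2 fold changes of -0.03, 0.10 and 0.16. Plod1, a collagen-modifying enzyme, had 0.03.

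On chromosome 5, all 90 span regions had negative values, and 89 lay below -1, whether or not they lay at a gene. The promoter region of Speer4c had 8.05, 6.35 and 3.12 CPM in young and 1.41, 0.981, 1.40 and 1.91 CPM in aged libraries. All 4 aged libraries were below all 3 young ones, at 5.84 ± 2.50 against 1.42 ± 0.38 CPM (SD, n = 3 and 4), a log2 fold change of -2.03 (SE 0.35). The promoters with near-identical sequence shown above had -1.60 (Gm21149), -1.99 (Gm21190) and -2.09 (Gm21083).

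Speer4cos, transcribed from the opposite strand, had the strongest family promoter of the window, with 33.4, 30.01 and 17.3 CPM in young and 8.17, 8.83, 6.30 and 13.1 CPM in aged libraries. Its log2 fold change was -1.56 (SE 0.25), and its groups did not overlap. The strongest region of the span (15506846 to 15509744) lies at no annotated gene and had 35.0, 32.0 and 21.05 CPM in young and 9.05, 10.003, 10.3 and 13.1 CPM in aged libraries, or -1.48 (SE 0.19). Its 3 young values all lay above its 4 aged ones. The 3 start regions of Gm43391, each with 9 or 10 copies, had -1.43, -1.78 and -2.02.

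Values across the chromosome 5 span ran from -2.64 (SE 0.40) at 15670442, an intergenic region without a copy, to -0.98 (SE 0.34) at 15702909 in the body of Speer4cos. The 10 regions that overlapped a gene named as Speer had a median of -1.71, close to the -1.77 of the whole span. The span also holds genes such as Gm21190, whose start shown above matches that of Speer4c. These medians therefore do not compare the family with other DNA. The remaining 2 regions of the window were promoters of long neuronal genes beside the span. Pclo, a scaffold of the presynaptic zone, had 26.7, 30.2 and 27.1 CPM in young and 49.2, 46.5, 37.6 and 40.5 CPM in aged libraries, a log2 fold change of 0.63. Cacna2d1, a calcium channel subunit, had 4.20 ± 1.30 and 1.96 ± 0.73 CPM, or -1.08, and has no copy.

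The chromosome 8 span held its strongest and its weakest regions side by side. Gm10060 had 87.8, 65.6 and 94.4 CPM in young and 88.1, 89.6, 104 and 89.9 CPM in aged libraries, or 82.6 ± 15.1 and 92.9 ± 7.50 CPM. Its copy at Gm21769 had 70.0, 60.2 and 73.8 CPM in young and 83.8, 81.8, 85.7 and 81.8 CPM in aged libraries, and 6820431F20Rik had 36.4 ± 5.52 and 39.997 ± 5.23 CPM. The log2 fold changes of the 5 copies in the second set of sequences lay between 0.14 and 0.30. Gm21769, with every aged library above every young one, had the highest of them.

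These 5 stretches share the letters AAGATGGCG, which occur in motifs known for the transcription factor YY1. The run was picked from their sequence, so its presence there was fixed in advance. Searched on both strands in the middle 300 bases, it was found in 1 of the other 221 window regions (0.452%), in 0.711% of all regions and in 1.40% of RefSeq promoters of the same length. Over their whole length, which varies, 4 of the 221 held it (1.81%), 3 on chromosome 8 with log2 fold changes between -0.07 and 0.24 and 1 on chromosome 5 with -2.64. The match describes the sequence and says nothing on what bound there.

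Of the 47 regions of the span, 6 others also lay above -0.5, with values from -0.31 to 0.24, and the remaining 36 lay below -1. At 20258889 to 20260499, the values were 10.5, 10.8 and 4.60 CPM in young and 1.23, 1.96, 1.17 and 1.78 CPM in aged libraries, a log2 fold change of -2.53 (SE 0.34). At 20512229, they were 16.5, 18.2 and 8.39 CPM in young and 2.81, 1.96, 4.44 and 4.20 CPM in aged libraries, or -2.14. Both regions showed all aged libraries well below all young ones at levels of several CPM. The start of Gm6483, a pseudogene, had -2.71 (SE 0.60). The lowest fitted value, -3.37 (SE 0.70) at 19762847, rested on 2, 0, 0 and 2 counts in the aged libraries.

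The genes named as defensins showed little. Of 61 genes, Defb1, the beta-defensin of kidney and airway epithelium, alone had an accessible region at its start (21776362 to 21777059). It had 6.11, 7.82 and 4.28 CPM in young and 3.69, 4.71, 4.67 and 12.7 CPM in aged libraries. The log2 fold change was 0.06 (SE 0.38), and the high mean of the aged group came from replicate 4. A region inside Defb1 had 17.1 ± 1.95 and 21.01 ± 1.61 CPM, or 0.28.

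**Figure D4:**
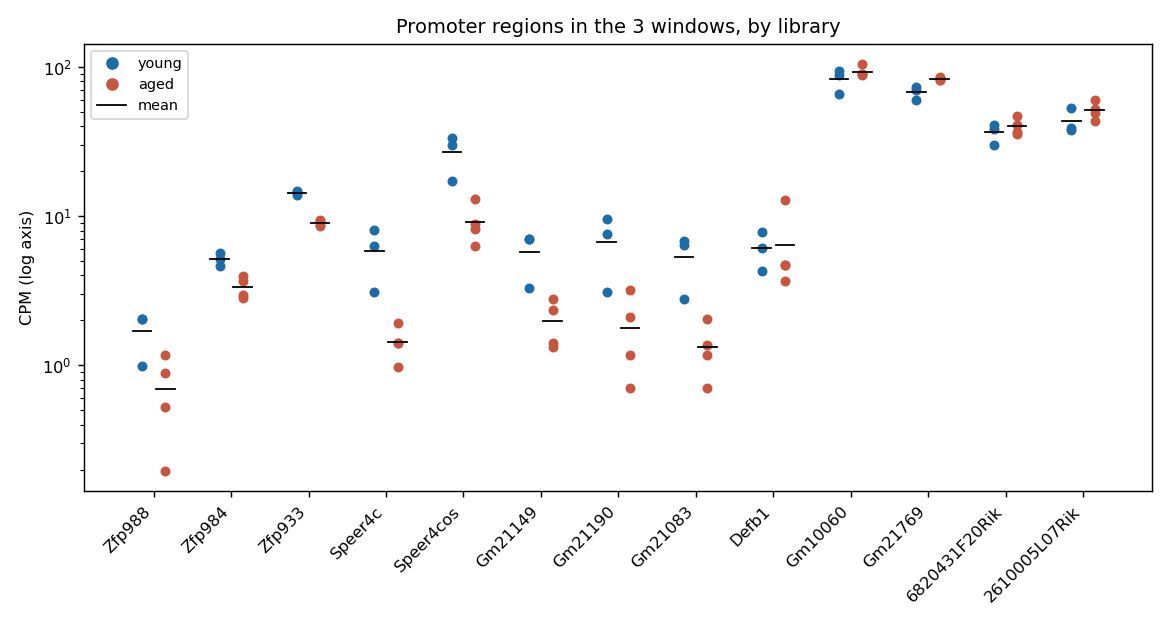
CPM in each library (log axis) at promoter regions of the 3 windows, with black lines for the mean of the 3 young and 4 aged libraries. The zinc finger, Speer and related genes have lower aged means, such as 14.4 and 9.03 CPM at Zfp933, whereas Defb1 and the chromosome 8 copies overlap or lie higher.

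Regions that are copies of each other were grouped, with 2 regions linked where either one matched the other, so that a group can hold a larger region counted above as without a copy over its own length. On chromosome 5, where 89 of 90 span regions lay below -1 in any case, 16 groups of 2 or more regions were found, and in 15 of them every region lay below -1. The remaining group was the largest, with 10 regions spread over both blocks of the span, 2 of them at starts of Gm43391, and values from -2.17 to -0.98. On chromosome 8, where 36 of 47 lay below -1, 6 of 8 groups lay entirely below -1, and 1, the 5 strong copies, entirely above -0.5. The last one was mixed, with 5 regions between -1.16 and 0.24. On chromosome 4, where 35 of 44 lay below -1, 2 of 4 groups lay entirely below -1 and 2 above -0.5. Whether copies shared a class more often than other regions was not tested. Since copies share sequence and may share reads, these groups are not independent observations.

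The places of the copies differed between windows. On chromosome 5, 424 of 432 copies (98.1%) lay in the same window and 8 elsewhere on chromosome 5. On chromosome 4, 49 of 87 lay in the same window and 34 on other chromosomes, and on chromosome 8, 196 of 307 and 91. The best copy was 97.5%, 97.8% and 98.6% identical at the median. Chromosome 5 thus had the largest share of copies in its own window.

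Outside the windows, 4 accessible regions were near-identical to window regions. They lay outside the rule, but were picked by this likeness, and reads may be shared between them and the window regions. Of the 4, 1 was called less accessible, against 3.30% of all regions and 10.7% of regions with a near-identical copy outside the windows. It lies at chr5:17468161-17469449, 6649 bp from the start of Speer4f1, beyond the Speer window but in the same family, and had 8.70, 7.41 and 3.78 CPM in young and 1.58, 2.55, 1.40 and 1.65 CPM in aged libraries. It fell from 6.63 ± 2.55 to 1.80 ± 0.51 CPM (SD), a log2 fold change of -1.93 (SE 0.33) with edgeR's adjusted p = 0.0110 over all regions and all aged libraries below all young ones. Its window copies on chromosome 5 lie in a group with values from -2.11 to -1.56. The adjusted p was 0.0583 without young replicate 1 and at most 0.0491 in the other 6 fits that left out 1 library.

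Smarca5 gave the contrasting case. Its promoter had 63.8 ± 7.80 CPM in young and 75.5 ± 7.38 CPM in aged libraries, a log2 fold change of 0.24 (SE 0.12, edgeR adjusted p = 0.239). Its pseudogene copies on chromosome 4 were weak, with 8.70, 8.05 and 2.14 CPM in young and 1.49, 1.18, 1.40 and 1.78 CPM in aged libraries at Gm13135, and had log2 fold changes of -2.13 (Gm13135, SE 0.41) and -2.56 (Gm13136, SE 0.71). The last of the 4, at chr8:69544378-69545361, copies the mixed group of chromosome 8 and had 0.23 (edgeR adjusted p = 0.497).

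**Figure D5:**
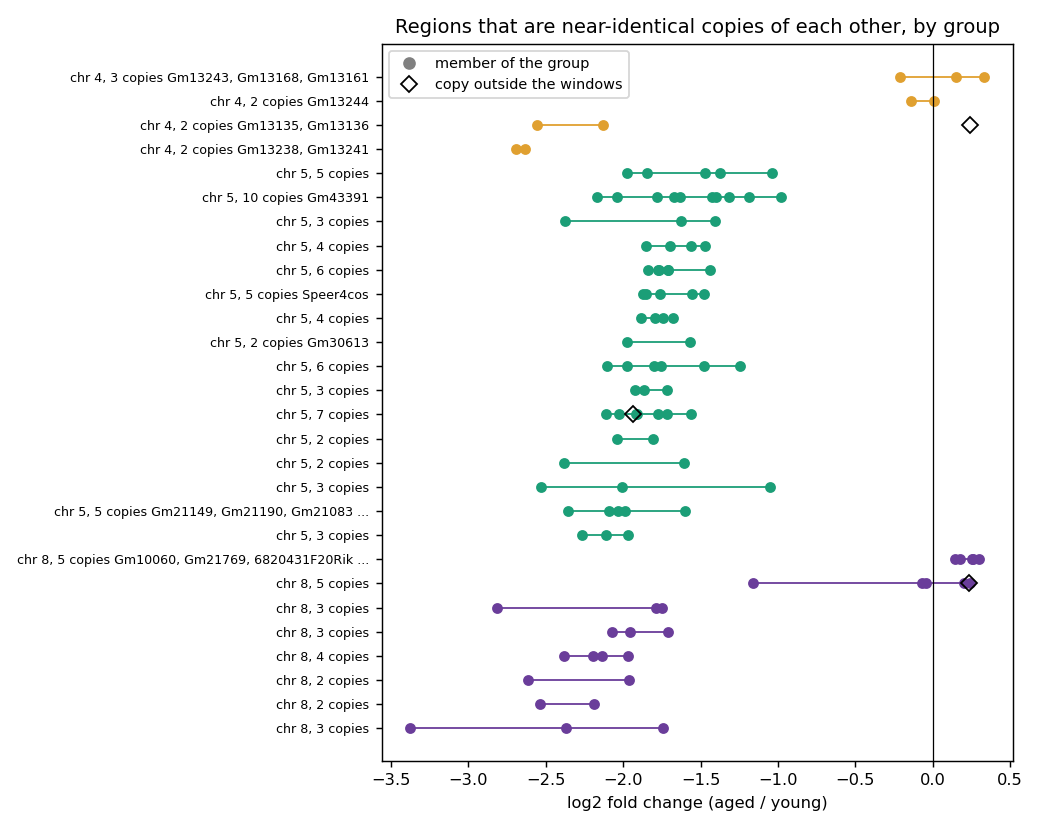
Log2 fold change (aged over young, horizontal axis) of regions that are near-identical copies of each other, 1 row for each group within a window, with genes named where a region lies at their start; open diamonds are copies outside the windows. In 15 of 16 groups on chromosome 5 every region lies below -1, the 5 strong copies of chromosome 8 lie between 0.14 and 0.30, and the Smarca5 promoter at 0.24 lies apart from its copies.

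Zinc finger genes elsewhere, counted by symbol or description, were set beside those of chromosome 4. The set includes genes found by description alone, such as Nanos1 and Zc2hc1a, and is therefore wider than the chromosome 4 family. Outside the windows, 631 regions lay at starts of zinc finger genes, with a median log2 fold change of 0.12, and 7 of them (1.11%) were called less and 14 (2.22%) more accessible. Over all 15384 promoter regions outside the windows, 1.96% were called less and 4.49% more accessible. Of the 7, the promoter of Zfp9 fell from 14.2 ± 1.42 to 6.21 ± 2.16 CPM (log2 fold change -1.13, edgeR adjusted p = 0.0204). The others lay at Jazf1 (-1.12), Zfp651 (-1.08 and -0.80), Zfp532 (-1.04), Nanos1 (-0.65) and Zc2hc1a (-0.61), and none of the 7 has a near-identical copy. Without young replicate 1, edgeR called 0 of the 631 less accessible, with 23 at an unadjusted p under 0.05, while DESeq2 called 7 with all libraries. Among 25 stretches of 1 Mb outside the windows with at least 5 zinc finger genes and 10 regions, medians ran from -0.35 to 0.12.

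No accessible region lay at the start of a gene named as Speer outside the window. The single start elsewhere of a gene named as a defensin, Defb42 on chromosome 14, had a log2 fold change of 0.11. Among 1587 stretches of 1 Mb with at least 10 regions, the 6 that make up most of the duplicated spans had medians from -1.88 to -1.44, low values by selection. Stretches outside the windows also had low medians, such as -1.96 over 13 regions on chromosome X at 170000001 to 171000000 and -1.21 over 15 regions on chromosome Y. Another family of local duplicates with a known role in liver, the Mup genes of major urinary proteins on chromosome 4 (59956804 to 62150863), had a median of -0.31 over 127 regions, -0.46 over the 98 with a near-identical copy and -0.07 over those without. The Serpina genes of chromosome 12, which encode protease inhibitors, had 0.014 over 71 regions, -0.29 over the 15 with a copy and 0.10 over those without.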

How the data were processed

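ATAC-seq reads of 7 mouse liver libraries were processed by the authors. Per the submitters' processing notes, adapters were trimmed with cutadapt 1.13, reads were aligned to GRCm38 with Bowtie2 2.4.1 and peaks were called with MACS2 2.2.7; reads with a mapping quality of 10 or less and PCR duplicates were removed. The authors deposited raw counts (featureCounts) for 55680 consensus peaks, each found in 2 or more libraries, and 0 columns were left over. Total counts were 4474652 to 25461110, and errors from counts cover counting and sample spread only.

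Counts were analysed with edgeR 4.0.16 in R 4.3.3 (TMM, quasi-likelihood test with age as the only factor, Benjamini-Hochberg adjustment over all regions at 0.05). Log2 CPM used a prior count of 2, and CPM the TMM-scaled totals. Genes came from GENCODE M21, with promoters as TSS ± 200 bp. Copies were found by aligning each region to GRCm38 with minimap2 2.31 (identity of at least 95% over at least 80%). Sequences were read from GRCm38 with samtools 1.23.1 and promoters from RefSeq. Tables were made with Python 3.11.15 (numpy 2.4.6, pandas 2.3.3, matplotlib 3.10.9), and the scripts were tested on simulated data.

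Windows, gene lists and tests were chosen with earlier results of these data known. Regions were named where they lie at a promoter or were among the 5 lowest, 3 highest or 5 strongest of a window, and copies where they match such a region. The region at 20512229 of chromosome 8, the 4 copies outside the windows and the motif were chosen after their values or sequences were seen. Libraries of the same age differed by more than sampling noise (chi-square per degree of freedom 2.38 to 6.06), so none was taken as a duplicate. Alternatives were DESeq2 1.42.0 size factors and test, total counts, GC and abundance offsets, a filter of 10 counts, other promoter, flank, copy and prior settings, a replicate block, summed pairs of aged libraries and libraries left out in turn.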

Additional observations from a re-analysis of the deposited data

Results flagged for a closer look

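Of 80 values checked in the aged group, 1 was flagged because 1 library lay far from the others: the log2 CPM of the region at Gm10060 on chromosome 8 was 6.70 in aged replicate 3 and 6.46, 6.49 and 6.49 in aged replicates 1, 2 and 4. Chance flags about 1 group in 20.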

How the results depend on the processing

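Of 258 recomputed values, 207 stayed within the spread of the replicates or within 1.5 times the count, of which 11 medians near 0 (flanks and copies outside the windows) changed sign, to between -0.10 and 0.024; the cause of the other changes was not tested unless given. Requiring 10 counts in every sample left 45, 17 and 19 regions in the windows of chromosomes 4, 5 and 8, and by construction removed regions that were low in aged libraries: the medians were then -0.24 on chromosome 4 and 0.10 on chromosome 8, the called regions 7, 16 and 4, and the window minus flank change -0.13 on chromosome 4 and -0.21 on chromosome 8. Offsets for abundance gave 5, 23 and 14 called regions, a median of -1.14 in the chromosome 8 window, 0.12 over copies outside the windows and 2 zinc finger promoters elsewhere. At an adjusted p under 0.01, the called regions were 1, 10 and 9, with 1 zinc finger promoter. Treating aged 1 and 3 as 1 animal gave 11 regions on chromosome 4 and 44 on chromosome 5, treating aged 2 and 3 so gave 19 on chromosome 4, and pairing aged 1 with 2, 1 with 3 or 2 with 3 left 4 zinc finger promoters each. Offsets for GC turned the medians near 0 positive (0.089 in the flanks of chromosome 4, 0.080 in those of chromosome 8, 0.039 over copies outside the windows). Scaling by total counts moved them to -0.16, -0.14 and -0.16 and called 12 zinc finger promoters. The median of all regions itself shifted by 0.11 with GC offsets and by -0.12 with total counts, about as far as these medians. With flanks of 1 Mb the medians were -0.28 on chromosome 5, over 5 regions, and -0.14 on chromosome 8. The duplicated span alone had a median of -1.63 on chromosome 4, and without both young replicate 3 and aged replicate 4 the chromosome 5 window had -2.28.

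Leaving out 1 library at a time, the called regions ranged from 1 to 35, 7 to 85 and 8 to 33 on chromosomes 4, 5 and 8, and zinc finger promoters elsewhere from 0 to 9. Window medians ranged from -0.72 to -0.59, -2.07 to -1.54 and -1.96 to -1.65, flank medians from -0.061 to -0.0037, -0.10 to 0.17 and -0.074 to -0.0098, and the window minus flank change from -1.13 to -0.69, -1.97 to -1.16 and -1.73 to -1.31. Copies outside the windows ranged from -0.10 to 0.0070.

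With a replicate block the called regions were 33, 86 and 33, the window medians -0.71, -2.06 and -1.96, and 9 zinc finger promoters elsewhere were called. Same-numbered young and aged libraries correlated at -0.12 to 0.056 in their deviations from the group means, and differently numbered ones at -0.15 to 0.23. With so few libraries, these values cannot decide whether the numbers pair the samples. Low counts limited the weak regions: 40 to 137 of the 226 held under 10 counts in an aged library and 42 in young replicate 3, while aged replicate 1, with a larger total than young replicate 1, had 56 against 0.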
